A study of Drosophila sechellia and Drosophila melanogaster and Drosophila simulans with 18 samples.

Results

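Hexanoic acid (HA), a fatty acid of medium chain length, occurs in the fruit of *Morinda citrifolia*, on which *D. sechellia* feeds and which is toxic to its generalist relatives, *D. melanogaster* among them. The comparison is between whole adult females of *D. melanogaster* on food with HA and females on plain food, across 10156 genes. These are the genes of the deposited *D. melanogaster* table that were listed at 1 FPKM or more on both diets, out of 17649 genes in the table. FPKM is a read density, the sequenced fragments of a transcript scaled for its length and for the size of the library. A further 272 genes reached 1 FPKM on control food only, 164 on HA food only, and 7057 on neither.

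Both groups were young adult females of strain 14021-0231.36, reared on cornmeal medium at 20 °C in a 16:8 light:dark cycle and then kept for 24 h on instant medium. The control group had plain instant medium and the HA group the same medium with 0.23% HA mixed in. Each diet had 3 libraries, made from poly-A-selected RNA of pooled whole flies and sequenced as single-end reads. The series holds 18 libraries in 6 groups, with the same diets in *D. simulans* and *D. sechellia*. Cuffdiff had pooled the 3 libraries, so a gene has a single FPKM value on each diet. No SD or interval could be computed from these pooled values, and no difference was tested here. Depth per library is not in the table.

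The change of a gene is log2((HA + 1)/(control + 1)), in which 1 FPKM is added to both values, so that it understates the change of genes of low level. Where 2 values are given for a gene they are FPKM on control food first and on HA food second, and the value that follows them is the change. A gene is said to have risen or fallen only where the change was 0.5 or more in size, which for a well-expressed gene is a difference of about 1.41-fold. Of all 10156 genes, 123 rose (1.21%) and 602 fell (5.93%), and the median change was 0.0046. Among the 9385 genes annotated as protein-coding genes of the nuclear genome, 46 rose (0.49%) and 487 fell (5.19%). These shares are the background for the counts in each gene group. Changes of any size were positive in 5157 of the 10156 genes and negative in 4999. Those numbers are the background wherever genes are counted as above or below control.

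The spread among genes of like level gives a scale for a single change. It mixes differences between genes with measurement error, so it is no error range for any one of them. Of the 1087 protein-coding genes at a mean of 100 FPKM or more, the central 95% had changes between -0.79 and 0.34. For the 1593 genes between 1 and 5 FPKM the same range was -0.59 to 0.36. The lower tail was thus the longer one at high and low level. The flies were female by their RNA. Yolk protein genes were among the genes of highest level, *Yp1* at 8392 and 9099 and *Yp2* at 6829.9 and 7281, whereas none of 52 genes for accessory gland and seminal proteins and 1 of 37 testis genes passed the 1 FPKM limit (*Mst85C*, 18.99 and 20.2). The Y-linked gene *FDY* was listed at 82.6 and 93.3, but it is a near copy of the autosomal gene *vig2* (401 and 458), from which its short reads could come. RNA from whole bodies was measured, so fewer cells of a type and less RNA per cell cannot be told apart.

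**Figure D1:**
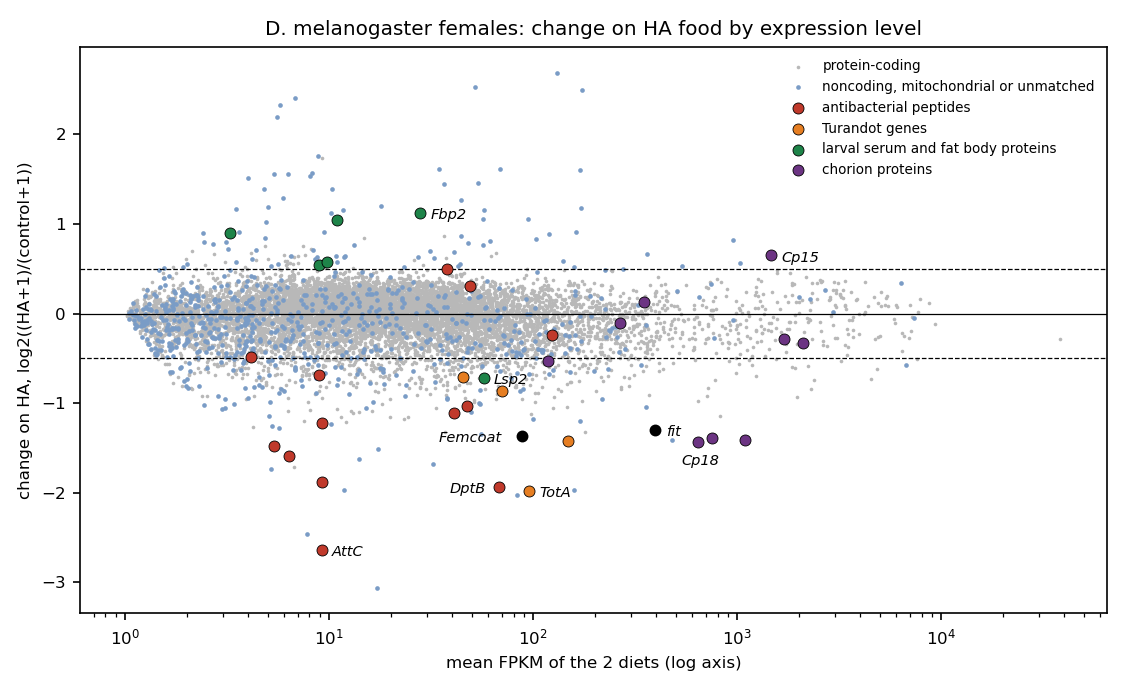
Change of each of the 10156 genes on HA food (y axis, log2 scale with 1 FPKM added) against its mean FPKM on both diets (x axis, log axis), with 1 point for a gene and dashed lines at changes of 0.5 and -0.5. Most antibacterial peptides, the Turandot genes and 3 chorion genes lie below most other protein-coding genes of their level. The larval storage protein list lies above them except for *Lsp2*, and the scattered points outside the cloud are mainly noncoding RNAs.

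The change varied with the length of the transcript. For the 280 protein-coding genes whose longest annotated transcript is under 500 nt the median change was -0.24, and 51 fell. The median was -0.17 at 500 to 800 nt, -0.090 at 800 to 1200 nt and -0.0063 at 1200 to 2000 nt. Above that it was positive, 0.042 at 2000 to 3500 nt, 0.087 at 3500 to 6000 nt and 0.078 at 6000 nt and over, where 2 of 642 genes fell. Short transcripts were therefore lower on HA food as a class and long ones slightly higher. Secreted peptides, ribosomal proteins and respiratory subunits have short transcripts, so the median of a list is also given after each gene's change was centred on the median of its length class.

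**Figure D2:**
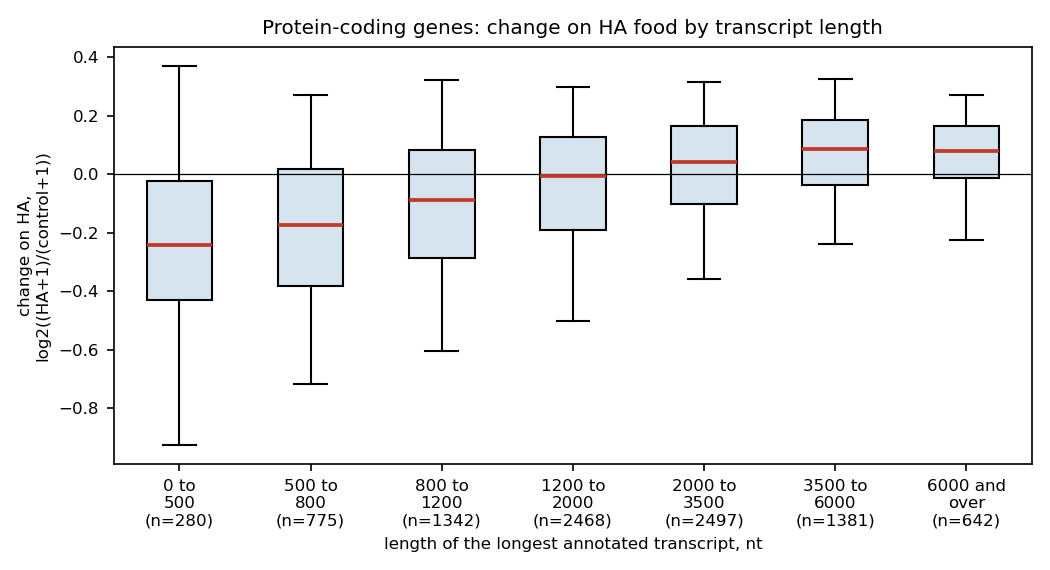
Change on HA food (y axis, log2 scale) of protein-coding genes by length of the longest annotated transcript (x axis, nt, with the number of genes in each class). Boxes span the quartiles, red lines mark medians and whiskers the central 90% of genes, and the medians run from -0.24 in the shortest class to 0.087 at 3500 to 6000 nt.

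*D. melanogaster* answers bacteria and fungi through the Toll and Imd pathways, whose NF-kB factors switch on genes for small secreted antimicrobial peptides in the fat body and in epithelia. Most of these effector genes were lower on HA food. Of 13 antibacterial peptide genes that passed, of 15 in the table, 9 fell and 1 rose, beside 5.19% and 0.49% of all protein-coding genes. Their median transcript is 449 nt, and of protein-coding genes under 500 nt 18.2% fell and 1.43% rose. The median change of the list was -1.11 (-0.87 when centred by length class), beside 0.0046 over all genes. *AttC*, an attacin active against Gram-negative bacteria, went from 16.6 to 1.82 (change -2.64), the largest fall of any protein-coding gene that passed. Its paralogues *AttA* (13.3 and 5.12, -1.22) and *AttB* (10.03 and 2.65, -1.59) also fell. So did the diptericin genes *DptB* (109 and 27.8, -1.93) and *DptA* (56.6 and 25.6, -1.11), whose peptides act on Gram-negative bacteria as well. The cecropins are short membrane-lytic peptides. *CecC* went from 15.1 to 3.38 FPKM (-1.88). *CecA2* went from 8.40 to 2.37 and *CecA1* from 11.2 to 6.63. *Mtk*, for the peptide metchnikowin, changed by -1.03, from 64.2 to 30.9. These genes were at least 1.70 times lower on HA food, and in the HA flies *AttC*, *AttB* and *CecA2* were left at under 3 FPKM.

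The rest of the antibacterial list did not follow. *Def*, whose defensin acts on Gram-positive bacteria, was at 134 and 114 FPKM (-0.23), and *edin*, an Imd-induced secreted peptide, at 4.98 and 3.28 FPKM (-0.48). *Dro*, for drosocin, was at 43.7 and 54.4 FPKM (0.31), and *Listericin* rose from 31.2 to 44.7 (0.50). In the drosomycin family 3 of 5 genes fell, with a median of -0.61 (-0.37 centred by length class). They were *Drsl2* (10.8 and 2.60, -1.71), *Drsl3* (10.8 and 4.16, -1.19) and *Drsl5* (225 and 147, -0.61). Most drosomycin transcript belonged to *Drs* itself, the antifungal Toll target, which was at 1158 and 1046 FPKM (-0.15). The most abundant gene of the family thus stood near its control value. The Bomanins and other immune-induced peptides, Toll-dependent effectors of the fat body, were all lower, 3 of 8 beyond 0.5, with a median of -0.46 (-0.25 centred by length class). Transcripts of the drosomycin and Bomanin lists are short too, with medians of 360 and 424.5 nt. *IM33*, the most abundant, was at 1588 and 1141 FPKM (-0.48). *IM2* fell from 1342 to 938 (-0.52), while *IM3* (633 and 618, -0.036) hardly differed. The table lists some genes in a joint locus with overlapping neighbours, between which reads are shared out by a model. That holds for *AttC* and *DptB*, each with 1 other gene, and for *Mtk*, with 4, and their values are the less certain for it.

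The genes that sense bacteria and relay the signal were near their control levels. Of 25 genes of Toll and Imd signalling 0 rose and 0 fell, beside 0.49% and 5.19% of all protein-coding genes. Their median was 0.029 (-0.033 centred by length class). *Rel*, the NF-kB factor of the Imd pathway, was at 21.6 and 26.7 FPKM (0.30), and *cact*, the inhibitor of the Toll factors, at 89.4 and 97.9 FPKM (0.13). At the low end stood *SPE*, the protease that activates the Toll ligand, at 37.9 and 29.8 FPKM (-0.34). The peptidoglycan receptors *PGRP-LC* (11.3 and 12.6, 0.15) and *PGRP-LE* (19.8 and 22.6, 0.18) of the Imd pathway and *PGRP-SA* (11.5 and 10.1, -0.17) of the Toll pathway were likewise within 0.2 of no change. Of 12 recognition proteins in all, 1 fell, *PGRP-SB1*, a secreted peptidoglycan-cleaving enzyme induced with the peptides, from 32.8 to 13.9 (-1.18). No relay gene thus moved by 0.5, which for 25 genes lies close to the shares of all protein-coding genes. Among the secreted products *Drs*, *Def* and *IM3* stood near control too.

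The Turandot genes, secreted stress proteins of the fat body that are induced through JAK-STAT signalling, fell in all 4 cases that passed of 7 listed, with a median of -1.14. *TotA* went from 153 to 38.1 (-1.98) and *TotC* from 216 to 80.0 (-1.42). *TotM* and *TotX* moved less, from 90.9 to 49.6 (-0.86) and from 56.3 to 34.1 (-0.71). *TotB* stood below the filter on both diets, at 0.94 and 0.975. None of the 6 JAK-STAT pathway genes moved by 0.5, which for so few genes lies close to the background shares of 0.49% and 5.19%. The receptor gene *dome* was at 12.8 and 13.9 FPKM (0.11) and that of the transcription factor, *Stat92E*, at 39.9 and 35.4 FPKM (-0.17). *Socs36E*, a feedback inhibitor and target of the pathway, was at 4.34 and 5.54 FPKM (0.29). The Turandot genes were thus lower without a like change in the pathway genes.

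Genes of blood cells were slightly lower. All 14 hemocyte markers that passed had negative changes, with a median of -0.26, and 2 fell, the phagocytic receptor gene *NimC1* from 7.22 to 4.78 and *NimB5* from 10.1 to 6.65. The defining markers *Hml* (1.92 and 1.501, -0.22) and *eater* (1.77 and 1.01, -0.46) were near the detection limit in whole flies. The prophenoloxidase genes *PPO1* (3.19 and 2.10, -0.44) and *PPO2* (3.61 and 2.07, -0.59), which serve melanization, were also low, and 2 of 10 genes of that list fell. The part of blood cells in the lower peptide genes was not tested.

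**Figure D3:**
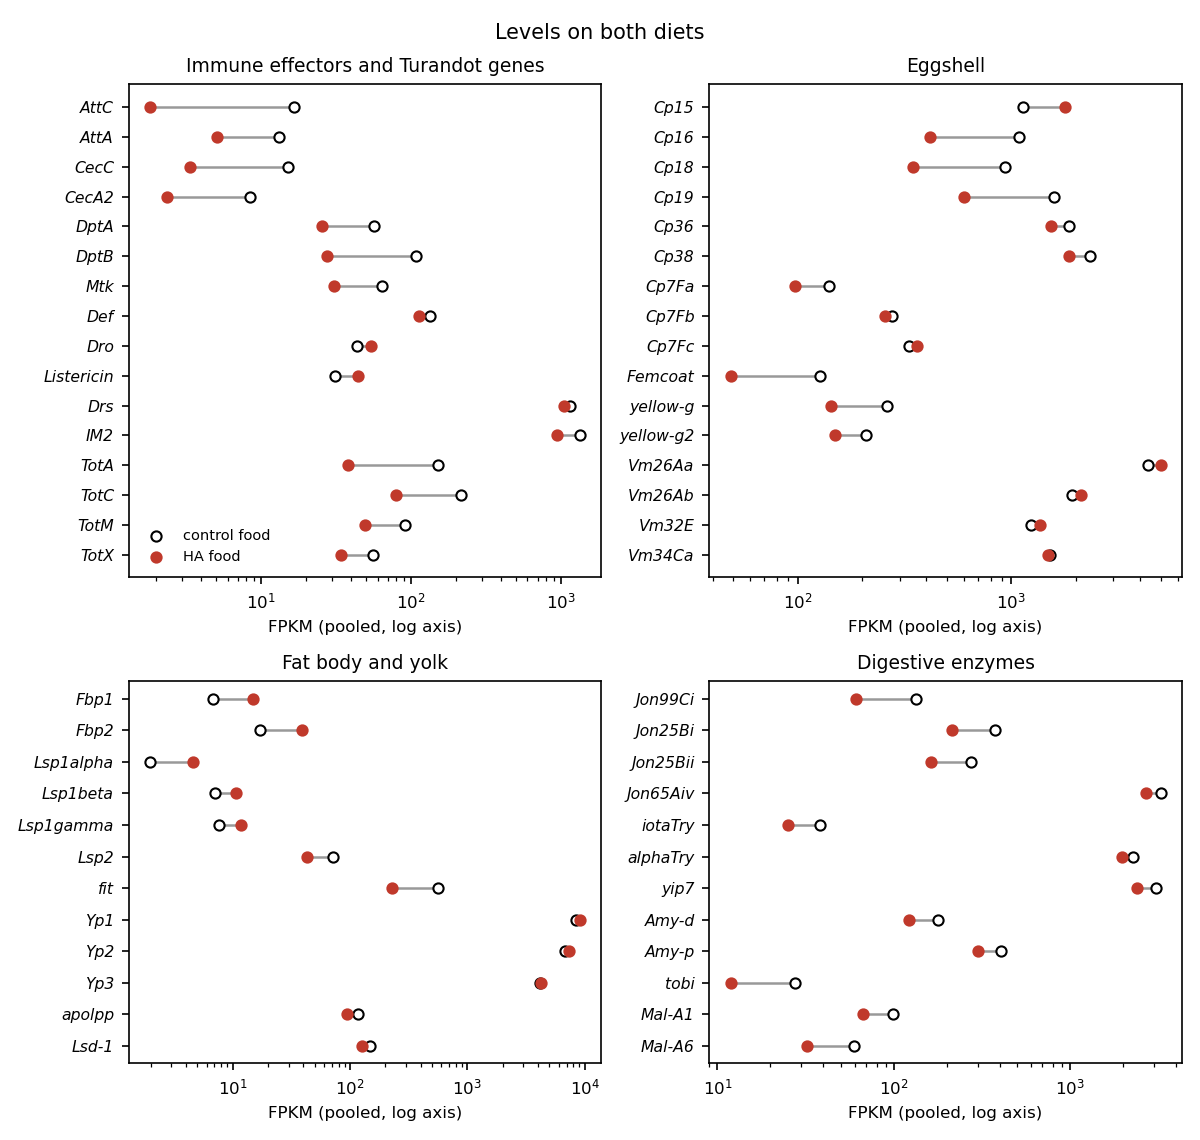
FPKM on control food (open circles) and on HA food (red circles) of named genes in 4 groups, on log axes, with 1 pooled value per gene and diet and a line joining each pair. Attacin, cecropin, diptericin and Turandot genes moved to the left, *Cp15* to the right beside *Cp16*, *Cp18* and *Cp19*, and the yolk protein pairs nearly coincide.

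The fat body, the organ of storage and of most blood proteins, also changed in other genes. Larval serum proteins are hexamers that larvae store and that adults normally carry at low level. *Lsp1alpha*, *Lsp1beta* and *Lsp1gamma* all rose, to 4.58, 10.8 and 11.8 FPKM from 1.98, 7.12 and 7.63. *Fbp1*, the receptor for their uptake, went from 6.75 to 14.96 (1.04) and *Fbp2* from 17.2 to 38.7 (1.12). Both stood near the upper end of all protein-coding changes. *Lsp2*, the most abundant of the 6 at 71.2 and 42.9, went the other way (-0.72). The summed level of the list was therefore close on both diets, 112 and 124 FPKM. *Fbp2* and *Lsp2* share their listed loci with other genes.

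*fit*, a female-biased fat body gene whose product is known as a satiety signal after protein meals, went from 564 to 228 (-1.30), although its listed locus holds 4 other genes. It was among the 10 largest falls of protein-coding genes that reached 100 FPKM on either diet. Yolk proteins, made in the same tissue and in follicle cells, were even. *Yp1*, *Yp2* and *Yp3* had changes of 0.12, 0.092 and 0.0013, and the yolk receptor gene *yl* had 0.18. The lipoprotein gene *apolpp* was at 116 and 94.8 FPKM (-0.29) and the lipid droplet gene *Lsd-1*, for a perilipin, at 149 and 126 FPKM (-0.24). Of 10 lipoprotein and lipid droplet genes 1 fell, *Karl*, a lipocalin, from 15.9 to 10.4. Genes of the fat body thus moved both ways, and the yolk protein genes, the most abundant of them, stood within 0.12 of control.

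Digestive enzymes of the midgut were lower in nearly every family. The Jonah genes encode chymotrypsin-like serine proteases of the gut lumen. Of 15 that passed, 14 had negative changes and 4 fell, with a median of -0.30 (-0.21 centred by length class). *Jon99Ci* went from 134 to 61.0 (-1.12). *Jon25Bi* and *Jon25Bii*, neighbours on 2L, went from 377 to 215 and from 275 to 163. The most abundant, *Jon65Aiv*, was at 3277 and 2723 FPKM (-0.27). All 12 genes of the trypsins and *yip7*, a related gut protease, had negative changes, and 3 of them fell. The falls were those of *iotaTry* (38.3 and 25, -0.60), *thetaTry* (88.7 and 58.3, -0.60) and *zetaTry* (69.1 and 46.6, -0.56). In both families the most abundant genes moved less, as in *alphaTry* (2275 and 1973, -0.21) and *yip7* (3093 and 2416, -0.36).

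Starch and sugars are cut by amylases and maltases. Of 13 maltase and amylase genes 5 fell, with a median of -0.43 (-0.42 centred by length class). *tobi*, an alpha-glucosidase gene known as a target of insulin and adipokinetic hormone signals, went from 27.6 to 11.9 (-1.15). *Mal-A6* went from 59.4 to 32.2 (-0.86) and *Mal-A8* from 8.05 to 4.21 (-0.80). These are maltases, which cut disaccharides to glucose, and *Mal-A1* fell as well, from 99.3 to 67.3. The amylase copies *Amy-p* (407 and 302, -0.43) and *Amy-d* (178 and 122, -0.54), which are nearly identical and can share reads, were lower together. *Mal-A5* (81.6 and 85.3, 0.063) was the exception. Of the Niemann-Pick type genes for sterol-binding proteins, *Npc2e* went from 24.5 to 11.7 (-1.005), in a listed locus of 4 genes, while *Npc2a* (378 and 339.8, -0.15) and the other members did not reach 0.5. The gut is lined by mucins and the peritrophic matrix. Of 15 genes for these 2 fell, *Peritrophin-15a* (287 and 177, -0.69) and *Muc4B* (22.7 and 11.9, -0.88), and the median was -0.058. Fat-digesting enzymes were few, and *mag*, for a gut lipase, was at 116 and 92.0 FPKM (-0.33). Lysozyme genes, which flies also use to digest bacteria, had a median of -0.22 (-0.050 centred by length class), and the most abundant, *LysP*, was at 244 and 209.8 FPKM (-0.22).

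**Figure D4:**
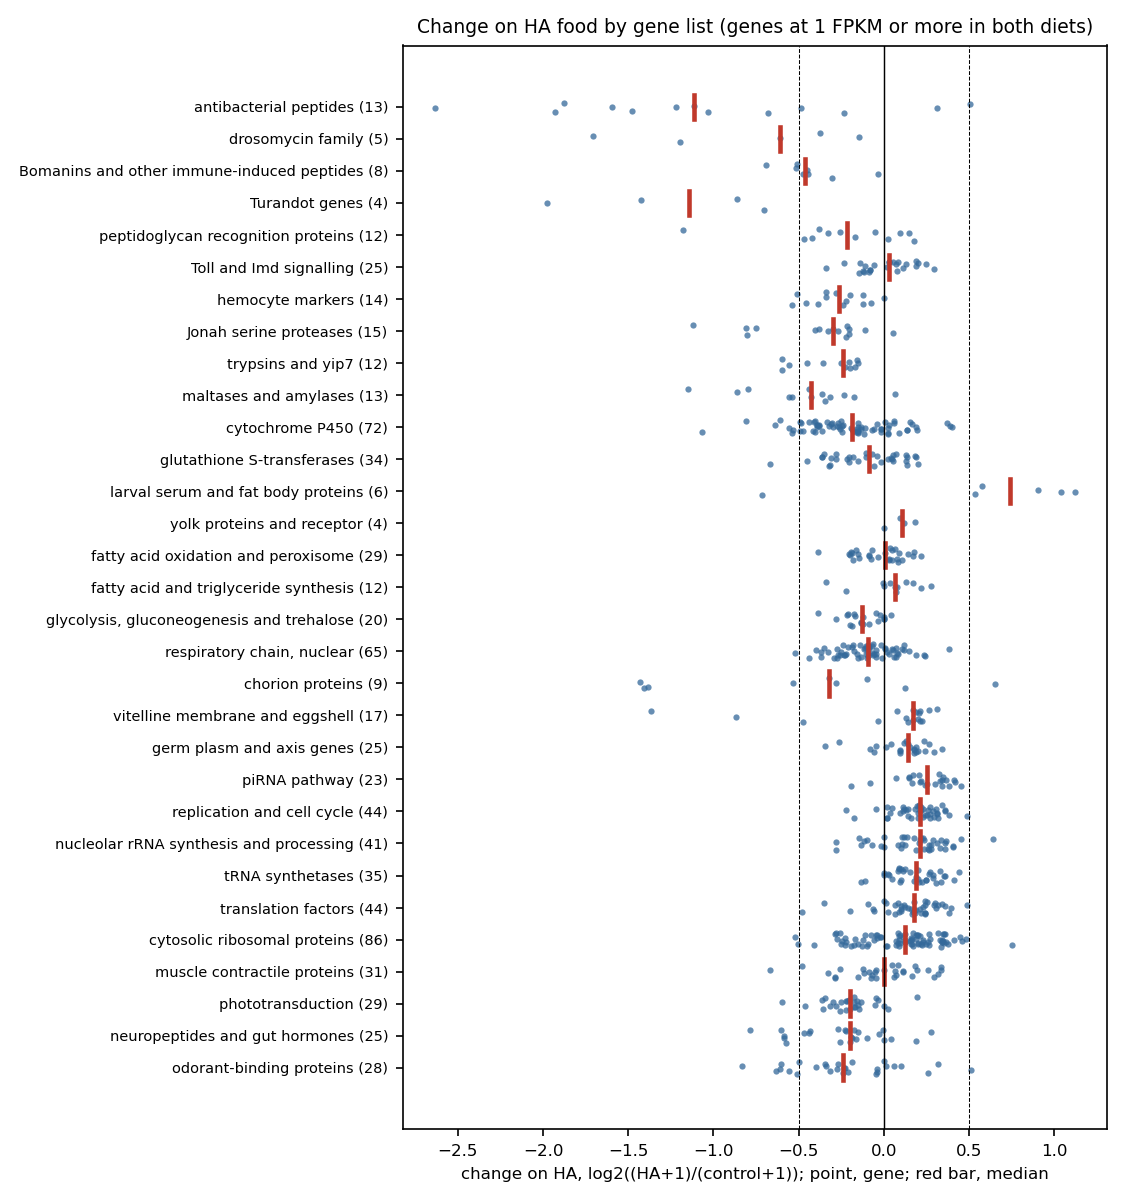
Change on HA food of every gene that passed in 31 gene lists (x axis, log2 scale, with 1 point for a gene, the list median as a red bar, and the number of genes in parentheses). Effector peptides, Turandot genes and digestive enzymes lie mostly left of 0, and fatty acid oxidation genes around 0. Germline, nucleolar and translation genes lie mostly right of 0 and inside the dashed lines at 0.5.

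The ovary makes up a large share of female RNA, and its eggshell genes diverged sharply. The chorion, the outer eggshell, is built by follicle cells from proteins of 2 amplified gene clusters. The cluster on 3L holds, in order, *Cp18*, *Cp15*, *Cp19* and *Cp16* between positions 8726791 and 8732599 of BDGP6. *Cp18* went from 932 to 345 (-1.43). *Cp19* went from 1588 to 597 (-1.41) and *Cp16* from 1083 to 414 (-1.38). *Cp15*, which lies between *Cp18* and *Cp19*, rose from 1137 to 1786 (0.65). The 3 other genes of the cluster thus fell 2.61 to 2.70 times while *Cp15* was 1.57 times higher, and none of the 4 shares its listed locus with another gene. In the X cluster, where 7 genes share 1 listed locus, *Cp38* was at 2324 and 1856 FPKM (-0.32) and *Cp36* at 1864 and 1533 FPKM (-0.28). Over all 9 chorion genes 4 fell and 1 rose, with a median of -0.32, or -1.40 without the genes in shared loci.

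Other late eggshell genes fell with *Cp16*, *Cp18* and *Cp19*. *Femcoat*, for a female-specific component of the chorion, went from 127 to 48.6 (-1.36), and *yellow-g*, needed to harden the shell, from 261 to 143 (-0.87). Its neighbour *yellow-g2* was at 208 and 149.5 FPKM (-0.47). The vitelline membrane, the inner layer, is laid down earlier. Its genes *Vm26Aa* (4374 and 4982, 0.19), *Vm26Ab* (1923 and 2105, 0.13) and *Vm32E* (1231 and 1357, 0.14) were slightly above control. The 3 vitelline genes thus differed in sign from *Cp16*, *Cp18* and *Cp19*, but not from *Cp15*. In all 2 of 17 vitelline membrane and eggshell genes fell and 13 had positive changes, with a median of 0.17.

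Germline genes were higher by small amounts. Of 23 genes of the piRNA pathway, which silences transposons in the germline, 21 had positive changes, beside 5157 of all 10156 genes. Their median was 0.26 (0.24 centred by length class). *piwi*, the nuclear effector, was at 33.6 and 42.9 FPKM (0.35). *krimp*, needed for transposon silencing in the nuage, was at 9.77 and 13.7 FPKM (0.45). Of 44 replication and cell cycle genes 41 were above control, with a median of 0.21. The mitotic cyclin genes *CycB3* (24.9 and 35.3, 0.49) and *CycB* (326 and 376, 0.20) were among them. The 25 germ plasm and axis genes had a median of 0.14. *osk*, which starts germ plasm assembly, was at 107 and 129 FPKM (0.27), whereas *nos*, its target at the posterior pole, was at 109 and 85.5 FPKM (-0.35). No gene of these 3 lists reached 0.5 in either direction.

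Genes of ribosome synthesis and translation showed the same small shift. In the nucleolus, where ribosomal RNA is made and cut, 33 of 41 genes were above control, with a median of 0.21. *Nopp140*, for a nucleolar chaperone of small nucleolar ribonucleoproteins, rose from 48.2 to 75.8 (0.64). The polymerase I subunits *RpI1* (8.99 and 12.6, 0.45) and *RpI135* (6.91 and 9.51, 0.41) came next. *mod*, for the nucleolar protein modulo and outside the lists, was at 199.6 and 281 FPKM (0.49), chosen after its value was seen. Of 35 tRNA synthetase genes 32 were above control (median 0.19), and of 44 translation factors 38 (median 0.18). *eIF3m*, of an initiation complex, was at 117 and 165 FPKM (0.49), and *eEF1alpha1*, the main elongation factor, at 4632 and 5486 FPKM (0.24). The 86 cytosolic ribosomal protein genes had a median of 0.13, or 0.25 when centred by length class, since their transcripts are short. *RpL3* was at 1304 and 1825 FPKM (0.49) and *RpS4* at 1533 and 2106 FPKM (0.46). *RpL22-like*, a paralogue of *RpL22*, rose from 3.36 to 6.35. Only *RpL15* (3801 and 2644, -0.52) and *RpL29* (8909 and 6273, -0.51) fell among them. *RpL41*, the gene of highest level in the table, was at 42007 and 34612 FPKM (-0.28). Mitochondrial ribosomal proteins were at a median of -0.040 (0.067 centred by length class).

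HA is a fatty acid that cells can oxidize in mitochondria, and medium chains enter that pathway without the carnitine shuttle. The 29 genes of fatty acid oxidation and peroxisomes had a median change of 0.0049. Among them 0 rose and 0 fell, beside 0.49% and 5.19% of all protein-coding genes. *CG12262*, the medium-chain acyl-CoA dehydrogenase and so the enzyme for chains of this length, was at 295 and 260.3 FPKM (-0.18). *Mtpalpha*, of the trifunctional protein, was at 77.8 and 88.1 FPKM (0.18) and *Thiolase*, for the last step of the cycle, at 144 and 152 FPKM (0.076). Peroxisome division involves *Pex11*, which was at 47.2 and 35.9 FPKM (-0.39). The 12 genes of fatty acid and triglyceride synthesis had a median of 0.068, with *FASN1*, the fatty acid synthase, at 114 and 119 FPKM (0.065) and *AcCoAS*, which activates acetate, at 191 and 151 FPKM (-0.34). No gene of either list moved by 0.5. The medians of both lists change sign when changes are centred by length class (-0.032 and -0.016), so no direction can be given for them.

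Sugar metabolism was slightly lower, with 17 of 20 genes of glycolysis, gluconeogenesis and trehalose below control, a median of -0.13 and no change of 0.5. *Ald* was at 1625 and 1241 FPKM (-0.39) and *Gapdh1* at 2732 and 2396 FPKM (-0.19). None of the 22 genes of insulin and nutrient signalling moved by 0.5 either. The insulin-like peptide genes *Ilp3* (10.1 and 7.46, -0.40) and *Ilp5* (7.29 and 5.54, -0.34) were lower by less than that. *AkhR*, for the adipokinetic hormone receptor, was at 22.3 and 16.3 FPKM (-0.43). *Thor*, for a translation inhibitor induced by fasting, was at 639 and 524 FPKM (-0.28). The 65 nuclear genes of the respiratory chain had a median of -0.092, which became 0.014 when centred by length class. *ND-15* (731 and 509, -0.52) alone fell, 1.54% of the list beside 5.19% of all protein-coding genes. The mitochondrial genome gave uneven values. *mt:ND3* rose from 112 to 212 and *mt:ND4L* fell from 11.98 to 7.17, but *mt:CoII* (7491 and 7238, -0.050) and *mt:Cyt-b* (1878 and 2139, 0.19) were even. *mt:CoIII* and *mt:ATPase6* were listed at 0 on control food and at 14290 and 3236 FPKM on HA food. Their status field marks these as loci with too much data, so the zeros are failed estimates.

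Cytochrome P450 enzymes oxidize foreign compounds, hormones and fatty acids. Of 72 genes for them 0 rose and 7 fell (9.72%), beside 0.49% and 5.19% of all protein-coding genes. Their median was -0.19 (-0.22 centred by length class). *Cyp4e3* went from 15.2 to 6.73 (-1.07) and *Cyp4d14* from 11.7 to 6.25 (-0.81). *Cyp28d1* went from 16.8 to 10.4 (-0.64). *Cyp4g1*, the hydrocarbon-forming enzyme of oenocytes, took up a large share of P450 transcript and was at 1097 and 1438 FPKM (0.39). The summed level of the family was thus higher on HA food, 2213 and 2409.7 FPKM, while 55 of its genes were lower. Glutathione S-transferases had a median of -0.088 (0.024 centred by length class), and *GstD1*, the most abundant, was at 1317 and 1161 FPKM (-0.18). *GstD11* was the only member to fall, from 2.89 to 1.45, which is 2.94% of the list beside 5.19% of all protein-coding genes. Of 10 UDP-glycosyltransferases 1 fell (*Ugt86Dd*, 4.21 and 2.60, -0.53) and of 14 esterases 2 (*Est-Q*, 10.5 and 6.23, -0.66, and *Est-6*, 56.6 and 38.1, -0.56). The esterase median was -0.15, but 0.027 without the genes in shared loci.

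Among the general stress genes the heat shock list was near control, with a median of 0.043. None of the 22 heat shock genes moved by 0.5, and *Hsp83*, the fly Hsp90, was at 732 and 936 FPKM (0.35). The inducible *Hsp70Aa* was at 18.3 and 19.7 FPKM (0.11), one of several near-identical copies, and the small heat shock gene *Hsp22* at 62.7 and 55.8 FPKM (-0.16). Stress-inducible chaperones were so at like levels on both diets. The 34 proteasome genes were slightly higher, with 25 above control, a median of 0.16 and no change of 0.5. The 8 chaperonin genes had a median of 0.12. In antioxidant defence *Sod1* was at 1012 and 807 FPKM (-0.33) and *Cat* at 176 and 175 FPKM (-0.009). Of 16 genes 2 fell, the small factor *maf-S* from 157 to 105 and the peroxiredoxin *Jafrac2* from 64.9 to 45.2. The metallothioneins *MtnA* (7336 and 5493, -0.42), *MtnB* (408 and 314, -0.38) and *MtnC* (1986 and 1476, -0.43) were lower by like amounts without reaching 0.5.

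Muscle genes had a median of 0.0021 over 31 genes, and *TpnC4*, for the troponin C of flight muscle, alone fell, from 1209 to 761. That is 3.23% of the list, beside 5.19% of all protein-coding genes. In the eye, 26 of 29 phototransduction genes were below control, with a median of -0.20 and 1 fall (3.45% of the list), *ninaD*, a carotenoid receptor gene. *ninaE*, the main rhodopsin, was at 1142 and 916 FPKM (-0.32) and *Arr1*, its arrestin, at 539.6 and 421 FPKM (-0.36). Of 17 neuronal and synaptic genes 14 were below control, with a median of -0.093 and no change of 0.5. Of 25 genes of neuropeptides and gut hormones 5 fell, with a median of -0.20 (-0.19 centred by length class). *Nplp2*, the most abundant, went from 8045 to 5412 (-0.57). *CCHa2*, for a nutrient-responsive hormone of gut and fat body, went from 67.2 to 43.9 (-0.60). *Dsk*, for a satiety peptide of the brain, went from 11.7 to 7.46 (-0.59), and *CCAP*, for crustacean cardioactive peptide, from 6.48 to 3.34 (-0.79).

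Taste and smell involve odorant-binding proteins, secreted around sensory neurons. Of 28 that passed, 6 fell and 1 rose, with a median of -0.24 (-0.12 centred by length class). *Obp57b* went from 53.3 to 29.5 (-0.83), and its neighbours *Obp57a* (274 and 193, -0.51) and *Obp57c* (270.2 and 191, -0.50) were lower too. The nearby *Obp57e*, which with *Obp57d* is known for its part in responses to the fatty acids of *M. citrifolia*, was below the filter at 0.441 and 0.726. *Obp99a* fell from 244 to 160.0 and *Obp83g* rose from 7.69 to 11.4. The receptors themselves were mostly under 1 FPKM in whole flies. Of 186 chemoreceptor genes 4 passed, and the coreceptor *Orco* was at 2.32 and 1.76 FPKM (-0.26). *to*, a clock-controlled carrier protein gene that responds to feeding, fell from 48.4 to 29.9 (-0.68), while *tim* (10.2 and 7.89, -0.33) and *per* (2.87 and 3.53, 0.23) did not reach 0.5.

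Cuticle genes, whose products are laid down mainly before and just after eclosion, had 39 of 126 members above the limit. Of these 2 fell (5.13%, beside 5.19% of all protein-coding genes), *Cpr65Au* (359 and 240.2, -0.58) and *Cpr51A* (17.5 and 10.8, -0.65). Juvenile hormone and ecdysone genes held no change of 0.5. *jhamt*, for the last enzyme of juvenile hormone synthesis, was at 3.72 and 2.86 FPKM (-0.29), and the hormone's early target *Kr-h1* at 7.59 and 7.76 FPKM (0.028). In amine and pigment synthesis *ple*, for tyrosine hydroxylase, was at 19.5 and 19.8 FPKM (0.022) and *Ddc*, for dopa decarboxylase, at 15.2 and 12.999 FPKM (-0.21). *Dat*, which acetylates dopamine, stood lowest in that list at 52.8 and 37.3 FPKM (-0.49). Tubule markers such as *Uro* (26.3 and 34.0, 0.36), for urate oxidase, gave a median of 0.029, which changes sign when centred by length class (-0.013).

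Many of the largest changes had no family name. Of the 15 protein-coding genes that fell furthest, *CG13947* went from 53.4 to 20.8 (-1.32) and *CG18180*, for a serine protease, from 257 to 102 (-1.32), the latter in a listed locus of 5 genes. On the other side, *CG34317* had the largest increase of any nuclear protein-coding gene that passed, from 3.73 to 14.8 (1.74), in a listed locus shared with 1 other gene. *CG31775* rose from 25.6 to 47.7 and *CG13905* from 10.2 to 19.3. *CG4038*, the fly GAR1 of the small nucleolar box H/ACA particles, rose from 50.1 to 80.6. At high level *CG5107* fell from 1136 to 513 (-1.15) and *lcs* from 849 to 432 (-0.97), both chosen after their values were seen. No protein-coding gene of the nuclear genome apart from *Cp15* rose at a mean of 100 FPKM or more.

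Noncoding RNAs supplied most of the increases. Of the other 771 genes that passed, which include 17 of the mitochondrial genome and 83 with no match in the annotation, 77 rose and 115 fell. The 133 annotated snoRNAs, small guide RNAs for ribosomal RNA modification, rose in 46 cases and fell in 32, with a median of 0.049 and a central 90% from -1.18 to 1.58. *snoRNA:Me18S-G1620* went from 51.5 to 294 and *snoRNA:Psi18S-640f* from 31.4 to 2.90, in opposite directions. RNAs of this kind are short and lack the poly-A tail by which the RNA was selected. A further 120 genes annotated as noncoding were at 1 FPKM or more on 1 diet and listed at 0 on the other. Histone mRNAs also lack the tail, and their 92 copies supplied 13 of the 46 protein-coding genes that rose. Of the 23 *His1* copies 11 rose and none fell, of the 23 *His2B* copies 6 fell and none rose, and the copies of each kind are nearly identical and share reads. The summed level was 122 and 180.1 FPKM for *His1* and 93.7 and 70.1 FPKM for *His2B*.

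Genes within 5 Mb of the centromere end of 2R and 3L, and genes of chromosome 4, were lower as groups. Those in the same stretch of 2L and 3R, taken whole, were not. Yet the genes nearest the centromere end of 2L were mostly below control, such as *CG12567* (-0.43) and *Spf45* (-0.49), though *Slmap* (0.16) was above. The 2R and 3L stretches are heterochromatin, and the small chromosome 4 is rich in it. They hold genes that are known to need that setting for normal expression. The stretches were chosen after the values were seen. Of 30 protein-coding genes within 5 Mb of the centromere end of 2R, 11 fell and none rose, with a median of -0.36, whereas in the rest of 2R 109 of 1907 fell, with a median of 0.0085. On 3L 9 of 27 fell within 5 Mb (median -0.28) and 84 of 1755 beyond (median 0.011). On chromosome 4 16 of 73 fell and none rose, with a median of -0.11. The shares of 36.7, 33.3 and 21.9% stand beside the 5.19% of all protein-coding genes. The same stretch of 3R (5 of 74), of 2L (16 of 362) and of X (4 of 225) stood at 6.76, 4.42 and 1.78%. The 2L stretch holds the histone cluster, whose *His2B* copies were 6 of its 16 falls. Histone copies also supplied 13 of the 14 rises there, so its shares are not like those of the other stretches.

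On 2R the genes that fell have unrelated roles. *Scp1*, for a calcium-binding protein of muscle, went from 2964 to 1655 (-0.84). *Maf1*, for a repressor of RNA polymerase III, went from 133 to 71.5 (-0.88). *rl*, for the ERK kinase, went from 96.7 to 56.4 (-0.77). Muscle, housekeeping and signalling genes were thus all among them. *uex* (74.9 and 41.2, -0.85), for a magnesium transporter, *Haspin* (85.9 and 48.7, -0.80), for a mitotic histone kinase, and *Yeti* (368 and 223, -0.72), for a chromatin protein, lie in the same stretch. *TpnC4*, the muscle gene that fell, lies 5.50 Mb from that end of 2R, just beyond it. Not every neighbour fell, *RpL38* being at 4231 and 4493 FPKM (0.087).

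On 3L *CkIIalpha*, for the catalytic subunit of casein kinase 2, went from 345 to 195 (-0.82). *Dbp80* (113 and 65.4, -0.78), for an RNA helicase, and *MED21* (105 and 60.2, -0.79), of the Mediator complex, fell with it, and so did *RpL15*, the ribosomal protein gene already named. On chromosome 4 *myo*, for a TGF-beta ligand, went from 35.4 to 18.4 (-0.91). *Arl4*, for a small GTPase, went from 136 to 73.5 (-0.88). The kinase gene *CaMKI* (127 and 78.9, -0.68), the adaptor gene *Crk* (138 and 88.0, -0.65) and *pho* (73.6 and 51.3, -0.51), for a Polycomb-group DNA-binding factor, also fell. *ci*, the effector of Hedgehog signalling on the same chromosome, was at 6.13 and 5.85 FPKM (-0.059). The genes named for these stretches were picked with their values known.

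The median longest transcript was 2461 nt in the 2R stretch, 1967 nt in that of 3L and 3875 nt on chromosome 4, and centring by length class gave medians of -0.37, -0.32 and -0.18. The genes also span more of the genome, with a median of 9543 bases against 2572 for all other protein-coding genes. Among genes of 20000 bases or more, 9 of 30 fell in the 3 stretches and 3 of 709 elsewhere. Among shorter genes the counts were 27 of 100 and 448 of 8546. The part of transcript length and gene span in these values was not tested.

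**Figure D5:**
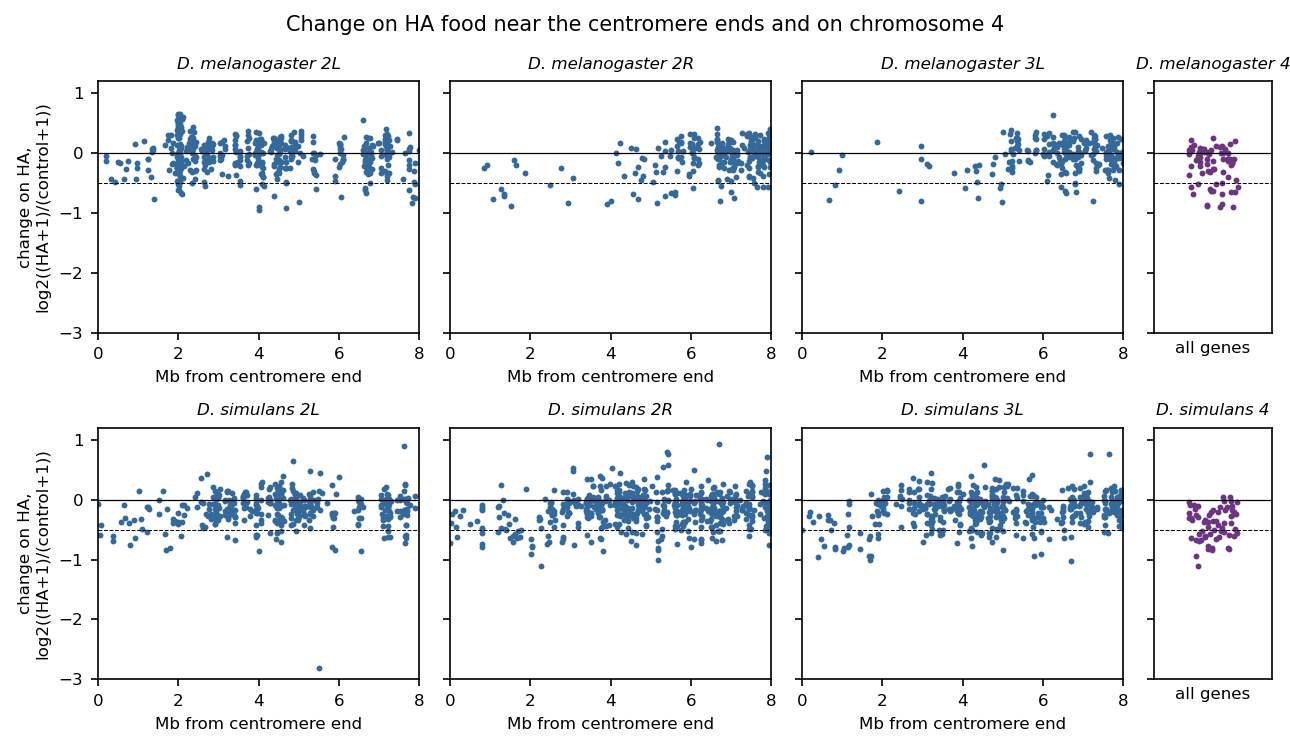
Change on HA food (y axis, log2 scale) of genes within 8 Mb of the centromere end of 2L, 2R and 3L (x axis, Mb) and of all genes of chromosome 4, in *D. melanogaster* (top, protein-coding genes) and *D. simulans* (bottom, all genes that passed). Distance in *D. simulans* is from the outermost gene that passed on 2L and 3L and from the start of the arm sequence on 2R. Points sink below 0 towards the left of the 2R and 3L panels and on chromosome 4 in both species, and the leftmost 2L points lie mostly below 0.

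The *D. simulans* table, from other flies (strain 14021-0251.195) on the same diets, also had lower values at these places. Its background was lower too, with a median of -0.11 over 9185 genes, of which 1.25% rose and 7.86% fell. On chromosome 4 25 of 65 genes fell and none rose, with a median of -0.37. Distance was taken from the start of the arm sequence on 2R and 3R, and from the outermost gene that passed on 2L, 3L and X. Within 2 Mb of the centromere end so placed, 15 of 41 fell on 2R, 21 of 45 on 3L and 9 of 32 on 2L, with medians of -0.41, -0.41 and -0.37. On 3R (14 of 177) and X (5 of 95) the share stayed near that of all genes or under it. *CkIIalpha* in *D. simulans* was at 152 and 78.6 FPKM (-0.94), and *pho* at 16.6 and 10.8 FPKM (-0.58).

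For other families the values of the species are set side by side. The *D. simulans* table shares 257 symbols that passed in both, and of the 22 of these that fell in *D. melanogaster*, 6 also fell there. *AttC* in *D. simulans* was at 12.2 and 16.3 FPKM (0.38) and *AttA* at 2.05 and 4.48 FPKM (0.84). *PGRP-SB1* was at 10.3 and 10.2 FPKM (-0.0078) and *Mtk* at 14.4 and 12.98 FPKM (-0.14). None of these 4 immune genes fell there. *Dro*, which was above control in *D. melanogaster*, fell in *D. simulans* (39.7 and 26.7, -0.56). *CecA1* (-0.40) and *Def* (-0.40) were lower there without reaching 0.5, while *AttB* (0.18) and *Drs* (0.16) were above control. *Cp16* was at 4741 and 4255 FPKM (-0.16) and *Fbp2* at 15.2 and 10.9 FPKM (-0.45). *Mal-A6* (46.3 and 28.5, -0.68), *Mal-A8* (16.8 and 8.98, -0.83), *Obp57a* (34.8 and 22.5, -0.61) and *Obp57b* (20.6 and 13.5, -0.58) fell in *D. simulans* too. *D. sechellia* (strain 14021-0428.25), where 5.5% of 11697 genes rose and 3.53% fell, shares 104 such symbols, and of the 10 that fell in *D. melanogaster* 3 also fell there. *CecA1* there was at 1077 and 109.6 FPKM (-3.29) and *CecC* at 252 and 133 FPKM (-0.91). *Dsk* was at 18.0 and 8.11 FPKM (-1.06), the third of them. *Est-6*, in contrast, rose and was at 51.6 and 83.2 FPKM (0.68), and *Obp57b* was at 60.4 and 70.4 FPKM (0.22). Each species was normalized in a run of its own, so levels are compared only within a species. No difference between species was tested.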

How the data were processed

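RNA was measured in whole adult females of 3 *Drosophila* species on 2 diets, with 3 libraries per species and diet. The authors checked reads with FastQC, mapped them with Bowtie2, which does not split reads across introns, to BDGP6 for *D. melanogaster*, and quantified genes with Cuffdiff (versions not given in the sources used here). The deposited tables hold FPKM as the authors computed them, 1 value per gene and diet over the pooled libraries, so neither depth nor spread between libraries could be computed from them. The columns of fold change, test statistic, p-value, q-value and significance in those tables are the authors' own comparison and were not used.

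Genes at 1 FPKM or more on both diets were kept, and the change was log2((HA + 1)/(control + 1)). Changes of at least 0.5 in size were counted, with no test. Positions, classes and transcript lengths came from a later Ensembl annotation of BDGP6, in which 17512 of the 17649 gene IDs matched. Python 3.11.15, pandas 2.3.3 and NumPy 2.4.6 were used, and the calculations were tested on simulated data.

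Genes were named by rule: the 15 largest changes each way over all genes and the 10 largest each way among genes reaching 100 FPKM, the 10 of highest level, genes at 1 FPKM or more listed at 0 on the other diet, and, in each list, all members where up to 12 passed, otherwise the 4 of highest level and the 4 largest changes each way. The values of genes described for a position, and of those marked so in the text, were known when they were picked. Some other list members are named for a known role, with their values in view. The lists and members were chosen with earlier results of these data known and were trimmed after the table was read. The stretches near centromeres and the centring by length class were also chosen after the data were seen. Alternatives were other pseudocounts, filters, thresholds and scalings, and leaving out shared loci or noncoding genes.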

Additional observations from a re-analysis of the deposited data

How the results depend on the processing

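The number of genes that rose (123) and fell (602) depended on the filter, the threshold and the classes of gene counted. With at least 5 FPKM on both diets 71 genes rose, with at least 1 FPKM on either diet 220, and with no filter 235. At a change of 0.3 in size 640 rose and 1539 fell, and at a change of 1 in size 34 rose and 63 fell. Without mitochondrial genes and those noncoding by annotation or, where unmatched, by name 47 rose. Without genes in shared loci 43 rose and 301 fell. After centring by length class, an alternative added after the data were seen, 364 fell. The median of the esterases, -0.15, became 0.027 without genes in shared loci, and that of the 4 chemoreceptors went from 0.12 to -0.077. Of 62 lists whose median could be taken under equal sums of FPKM, centring on the median of all genes and centring by length class, 45 kept its sign under each and 17 did not, among them fatty acid oxidation, Toll and Imd signalling and the nuclear respiratory chain. Of 30 named genes none reversed in an alternative that retained it, which was 25 genes at 5 FPKM on both diets and 22 without shared loci. Another pseudocount or filter, or leaving out genes, cannot turn the sign of a gene. Equal sums took the median of all genes only to 0.051. Centring by length class shifts a gene by a class median between -0.24 and 0.087, so genes of larger change could not reverse. The lack of reversals is therefore no check on these 30 genes. The causes of the differences between settings were not tested.

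No paired analysis was possible because the table holds 1 pooled value per diet, so that no alternative that leaves out a library was run. Values near 1 FPKM and those of short or duplicated genes are the least certain.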
